A study of Homo sapiens with 4 samples.

Results

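The genes described here are 10 enzymes of glutathione metabolism and antioxidant defence, measured in clones of SW620, an established line of human colon adenocarcinoma cells, that carry or lack the surface protein CD133 (prominin-1). The genes are GCLC, GCLM, GSS, GSR, GPX1, GPX2, GPX4, GSTP1, NQO1 and TXNRD1. Every probe set whose platform annotation names 1 of these genes was taken, which gave 20 probe sets of the 54613 tested. Each of the 20 names that gene alone. Of the genes, 7 had more than 1 probe set, and GPX1, GPX4 and GSTP1 had 1 each. The 10 genes were listed by name, at a time when earlier results of these data were known.

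The arrays came from a CD133+ clone (CPC1, 2 arrays) and a CD133- clone (CNC1, 2 arrays), each grown from single cells after magnetic sorting for CD133 and sorted again before RNA was extracted. Both clones were grown in the same medium with serum, penicillin and streptomycin, and no treatment with an anti-cancer drug is named. Each group is thus 1 clone, so CD133 status and clone cannot be told apart. Separate cultures are not named for the arrays of a clone, so p-values here reflect array-to-array spread that may be purely technical. The design text names tumour formation and response to anti-cancer drugs as the features in which the populations may differ.

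Glutathione is a tripeptide that keeps cells reduced. It is made in a pair of steps, the first by glutamate-cysteine ligase (catalytic subunit GCLC, modifier subunit GCLM) and the second by glutathione synthetase (GSS). Glutathione peroxidases spend it on hydrogen and lipid peroxides, glutathione transferases couple it to foreign compounds, many drugs among them, and glutathione reductase (GSR) restores it. NQO1 reduces quinones and TXNRD1 reduces thioredoxin, the parallel thiol system. GPX1, GPX2, GPX4 and TXNRD1 are selenoproteins. Many of these genes are known targets of NRF2 (encoded by NFE2L2), a transcription factor that binds antioxidant response elements and that KEAP1 and CUL3 mark for degradation in unstressed cells.

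The response-element core, TGACNNNGC, was searched on both strands of the RefSeq promoter windows (GRCh38.p14, 250 bases before to 50 bases after the gene start). Sequence outside these windows was not searched. On the opposite strand it reads GCNNNGTCA. Of the 10 genes, 8 were matched to a window by symbol, and 4 of these 8 held the core. Of all 35116 windows of that length, 13.3% held it. The matches are shown from 20 bases before to 20 bases after the core, cut at the gene start, on the strand of the gene, with the core in capitals.
GCLM, chr1:93909436-93909484, minus strand: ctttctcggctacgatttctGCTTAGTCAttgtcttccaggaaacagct
GPX2, chr14:64942839-64942887, minus strand: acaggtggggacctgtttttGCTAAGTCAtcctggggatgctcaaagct
GSTP1, chr11:67583726-67583774, plus strand: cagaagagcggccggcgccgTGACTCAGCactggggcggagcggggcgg
TXNRD1, chr12:104215660-104215708, plus strand: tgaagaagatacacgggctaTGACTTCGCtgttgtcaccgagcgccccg
TXNRD1, chr12:104215751-104215779, plus strand: cctccgccaggcgtccttcgGCTCCGTCA
The GSTP1 core overlaps TGACTCA, the site letters of the AP-1 factors, which 4.95% of all windows held on either strand. GCLC, GPX1, GPX4 and NQO1 had no match in this window. A match of letters is a description and shows no binding.

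The deposited signals were log2 values between 2.52 and 14.57. Array medians differed by 0.144, and the arrays were quantile normalized, so that all 4 have the same distribution. PROM1, which encodes CD133, checked the labels with log2 signals of 8.46 and 8.73 in CD133+ against 3.31 and 3.35 in CD133- cells. Across all probe sets, arrays of the same clone correlated with r of 0.991 and arrays of different clones with r from 0.979 to 0.990. Among colon epithelial markers, EPCAM, KRT8, KRT18, KRT19, CDH1 and VIL1 had mean log2 signals from 10.18 to 14.14 in both clones, CDX1 and CDX2 from 6.0 to 6.40, and KRT20 lay at 3.33 and 3.51. The 10 measured markers of leukocytes, fibroblasts, endothelium and erythroid cells had means from 3.57 to 7.01, and none of the 10 passed the test between clones. The 3' over 5' log2 difference of the ACTB control, a sign of RNA length, was 1.92 on CD133+ replicate 2 and 0.71 to 1.18 on the other arrays. The upper quartile of deposited signals was 6.91 on CD133- replicate 1, above the 6.61 to 6.71 of the other arrays.

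None of the 20 probe sets passed the test between the clones. In RNA pooled from many sorted cells, fewer cells expressing a gene and less RNA per cell cannot be told apart. This was limma's moderated test with Benjamini-Hochberg adjustment over all 54613 probe sets and a threshold of 0.05 on the adjusted p, in which 0.181% of all probe sets were called, 27 higher and 72 lower in CD133+ cells. In the values as deposited the calls were 3 higher and 3 lower. At an unadjusted p under 0.05 there were 2 of the 20, both of GCLM, against 12.7% of all probe sets. An exact permutation test of 2 against 2 arrays cannot give a two-sided p below 0.333. The counts over all probe sets rested on single arrays, since they were 4 higher and 5 lower with CD133- replicate 1 left out and 21 and 32 with replicate 2 of that clone left out. Leaving out CD133+ replicate 1 gave 106 and 414, and leaving out its replicate 2 gave 87 and 227. The count for the 20 probe sets was 0 without each array in turn.

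With 1 probe set per gene, the brightest, and the dimmest 20% of genes left out, the same test called 3.74% of 15820 genes and again none of the 10. The median log2 difference, CD133+ minus CD133-, over the brightest probe sets of the 10 genes was -0.054, and the median size of the difference without its sign was 0.069. Over all genes represented the same way these were 0.047 and 0.172. The first median was -0.081 in the deposited values and -0.16 with centred arrays for the 10 genes, and 0.044 and -0.035 over all genes. Over the 20 probe sets, of which 5 had a positive difference, the median was -0.11, against -0.15 as deposited and -0.22 with centred arrays. Of all 54613 probe sets, 28764 had a positive difference, with a median of 0.015. The median SE was 0.094 for the 10 genes and 0.173 over all genes. The brightest probe sets of the 10 genes lay between percentiles 86.0 and 99.4 of signal level over all probe sets. The part of signal level in their smaller differences was not tested. For the 10 genes, the 95% interval of the difference lay inside a 2-fold change in all 10 and inside a 1.5-fold change in 9, GCLM being the exception. Among all 20 probe sets the interval lay inside a 2-fold change in 16. The other 4 were 234986_at and 236140_at of GCLM, 205770_at of GSR and 239595_at of GPX2. All these intervals reflect array-to-array spread and are no bound on the difference between CD133+ and CD133- cells.

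**Figure D1:**
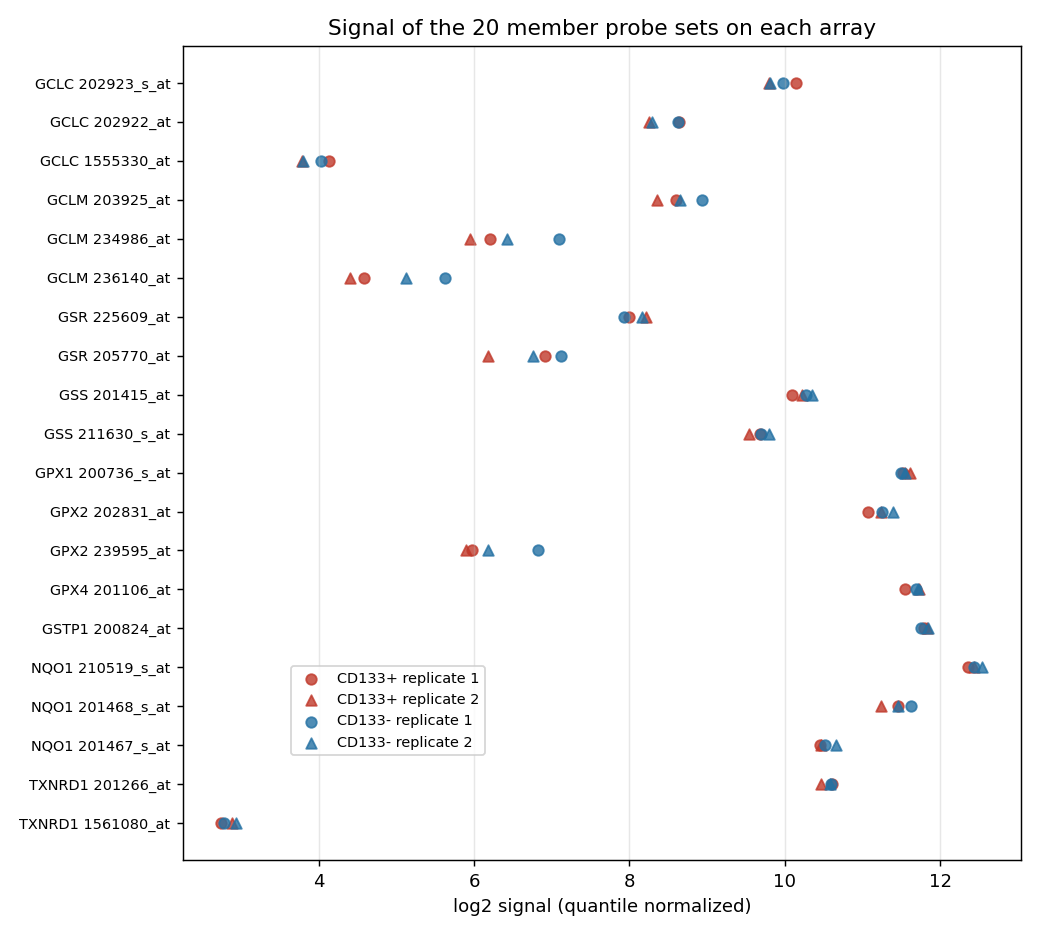
Log2 signal (quantile normalized, horizontal axis) of each of the 20 probe sets on the 4 arrays, CD133+ in red and CD133- in blue, with replicate 1 as circles and replicate 2 as triangles. The 4 points of most probe sets lie close together, and the 3 probe sets of GCLM have both red points to the left of both blue points.

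GCLC, the catalytic subunit that sets the pace of glutathione synthesis, had nearly the same signal in the clones. Its brightest probe set, 202923_s_at, read 10.15 and 9.79 in CD133+ cells and 9.98 and 9.81 in CD133- cells. The array values of the clones interleaved, and the log2 difference was 0.075 (SE 0.14, limma adjusted p = 0.866), with a 95% interval from -0.25 to 0.41. The probe sets 202922_at and 1555330_at gave -0.014 and 0.049 and overlapped as well. The sign of 202923_s_at turned to -0.047 with the arrays centred on their medians, and no direction can be given for GCLC.

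GCLM, the modifier subunit that raises the activity of GCLC, had the largest differences of the 10 genes. The brightest probe set, 203925_at, read 8.60 and 8.36 in CD133+ cells and 8.93 and 8.65 in CD133- cells. For 234986_at the signals were 6.20 and 5.95 against 7.09 and 6.42. For 236140_at they were 4.58 and 4.40 against 5.63 and 5.12. In all 3 probe sets both CD133+ arrays lay below both CD133- arrays, an order in this direction that 20.4% of all probe sets showed.

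The log2 differences of these probe sets were -0.31 (SE 0.16, limma adjusted p = 0.466), -0.68 (SE 0.25, adjusted p = 0.334) and -0.88 (SE 0.24, adjusted p = 0.207), or 1.24-, 1.60- and 1.85-fold, and none passed. The dimmer the probe set, the larger was its difference. Probe sets of a gene share its RNA and are not replicates. CD133- replicate 1 was the highest array in each of them. Without it the differences were -0.17, -0.34 and -0.63, and without CD133- replicate 2 they were -0.45, -1.01 and -1.14. The part of that array in the result was otherwise not tested. The sign stayed negative for all 3 under each scaling and without each array.

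**Figure D2:**
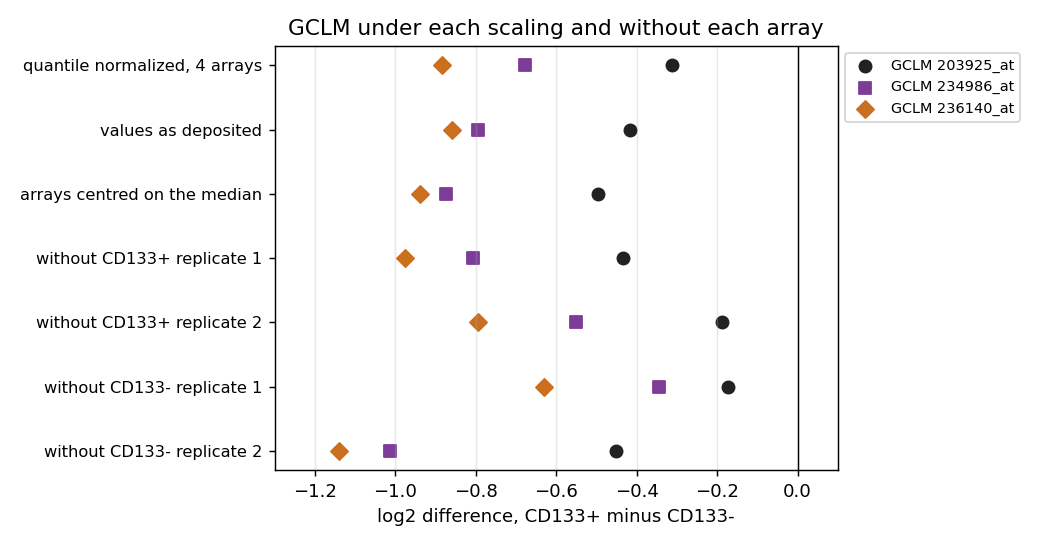
Log2 difference of GCLM, CD133+ minus CD133- (horizontal axis), for its 3 probe sets under 3 scalings and without each array in turn. All points lie below 0, and those of 203925_at and 234986_at come closest to it without CD133- replicate 1, at -0.17 and -0.34.

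Over the 4 arrays, the genes whose pattern lay closest to that of GCLM (203925_at) were UBXN7, MAN2A1 and SH3PXD2A. The measure was the Euclidean distance between mean-centred log2 signals of brightest probe sets, which was 0.018, 0.028 and 0.032. Being picked by closeness on these 4 arrays, they must have log2 differences near that of GCLM. Those were -0.32, -0.34 and -0.31, with limma adjusted p of 0.501, 0.467 and 0.518.

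GSS, which adds glycine to complete glutathione, was measured by a pair of bright probe sets. On 201415_at the CD133+ arrays read 10.10 and 10.22 and the CD133- arrays 10.27 and 10.35. On 211630_s_at they read 9.68 and 9.55 against 9.69 and 9.79. The CD133+ arrays lay below the CD133- arrays in both, by 0.047 and 0.0091 between the nearest arrays. The log2 differences were -0.15 (SE 0.10, limma adjusted p = 0.584) and -0.13 (SE 0.11, adjusted p = 0.686), with intervals from -0.38 to 0.087 and from -0.39 to 0.14. The difference of 201415_at was -0.085 without CD133+ replicate 1 and -0.26 with centred arrays. That of 211630_s_at was -0.062 without CD133+ replicate 2, -0.076 without CD133- replicate 2, -0.19 without CD133+ replicate 1 and -0.26 with centred arrays.

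GSR, which returns oxidised glutathione to its reduced form, gave different readings with its 2 probe sets. The brighter, 225609_at, read 8.0 and 8.21 in CD133+ and 7.92 and 8.17 in CD133- cells. Its log2 difference was 0.058 (SE 0.16, limma adjusted p = 0.915), and the sign turned in the deposited values (-0.093) and with centred arrays (-0.17). The dimmer, 205770_at, read 6.91 and 6.17 against 7.11 and 6.76, a log2 difference of -0.39 (SE 0.27, adjusted p = 0.588). The groups overlapped in both. The CD133+ arrays of 205770_at differed from each other by 0.74, the widest gap between arrays of a clone among the 20 probe sets. Replicate 2 was the lower of them. The difference was -0.024 without it, -0.76 without CD133+ replicate 1, -0.21 without CD133- replicate 1 and -0.61 with centred arrays. CD133+ replicate 2 is also the array with the high ACTB 3' over 5' difference, whose part in this result was not tested.

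Among the glutathione peroxidases, GPX1, the ubiquitous cytosolic enzyme, read 11.52 and 11.61 in CD133+ and 11.49 and 11.54 in CD133- cells (200736_s_at). GPX4, which reduces lipid hydroperoxides in membranes and restrains ferroptosis, read 11.55 and 11.73 against 11.69 and 11.72 (201106_at). The arrays of the clones overlapped for each. The log2 differences were 0.045 (SE 0.076, limma adjusted p = 0.850) for GPX1, with a sign that turned to -0.052 with centred arrays, and -0.062 (SE 0.083, adjusted p = 0.801) for GPX4. The 95% intervals, -0.13 to 0.22 and -0.26 to 0.13, reached 1.17-fold and 1.19-fold changes at their farther ends. They reflect array-to-array spread and are no bound on the difference between CD133+ and CD133- cells.

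GPX2, the peroxidase typical of gut epithelium, had the largest difference of the 3 peroxidases among the 10 genes. Its bright probe set, 202831_at, read 11.08 and 11.24 in CD133+ and 11.26 and 11.39 in CD133- cells. Its dimmer probe set, 239595_at, read 5.97 and 5.90 against 6.82 and 6.18. Both CD133+ arrays lay below both CD133- arrays in each, for 202831_at by 0.019 between the nearest arrays. The log2 differences were -0.16 (SE 0.092, limma adjusted p = 0.504) and -0.56 (SE 0.25, adjusted p = 0.400). On 239595_at CD133- replicate 1 lay 0.65 above replicate 2 of that clone, and without it the difference was -0.24, against -0.89 without replicate 2. For 202831_at the difference ran from -0.24 without CD133+ replicate 2 to -0.085 without CD133+ replicate 1.

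GSTP1, the pi-class transferase that conjugates glutathione to electrophilic drugs, had the smallest difference among the 10 brightest probe sets. Its probe set 200824_at read 11.79 and 11.83 in CD133+ and 11.76 and 11.84 in CD133- cells, so that both CD133+ arrays lay between the CD133- arrays. The log2 difference was 0.014 (SE 0.070, limma adjusted p = 0.954), and -0.077 with centred arrays. Its 95% interval, -0.15 to 0.18, reached a 1.13-fold change at its farther end. That interval reflects array-to-array spread and is no bound on the difference between CD133+ and CD133- cells.

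NQO1, a quinone reductase and a widely used readout of NRF2 activity, was measured by 3 bright probe sets. On 210519_s_at the CD133+ arrays read 12.36 and 12.44 and the CD133- arrays 12.44 and 12.54. On 201468_s_at they read 11.46 and 11.24 against 11.63 and 11.46. On 201467_s_at they read 10.46 and 10.47 against 10.52 and 10.66. The groups were apart only on the last of these and overlapped by 0.0030 and 0.0024 on the other two. The log2 differences were -0.093, -0.19 and -0.13 (SE 0.067, 0.10 and 0.096), with limma adjusted p of 0.609, 0.479 and 0.618. No interval reached a 1.5-fold change, the widest running from -0.42 to 0.044. Here too the intervals reflect array-to-array spread and bound no difference between CD133+ and CD133- cells. Leaving out 1 array moved the differences within -0.15 to -0.040, -0.30 to -0.082 and -0.20 to -0.057, with the value nearest 0 without CD133- replicate 2 for the first and last and without CD133+ replicate 2 for 201468_s_at. With centred arrays they were -0.18, -0.27 and -0.24, and the sign stayed negative in each of these settings.

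TXNRD1, the cytosolic thioredoxin reductase, read 10.61 and 10.47 in CD133+ and 10.60 and 10.58 in CD133- cells on 201266_at. The CD133- arrays lay between the CD133+ arrays, and the log2 difference was -0.046 (SE 0.095, limma adjusted p = 0.880). Its other probe set, 1561080_at, had means of 2.81 and 2.86, close to the lowest signals on the arrays, so that it carries little information on the gene. Its log2 difference was -0.050 (SE 0.098, adjusted p = 0.874).

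**Figure D3:**
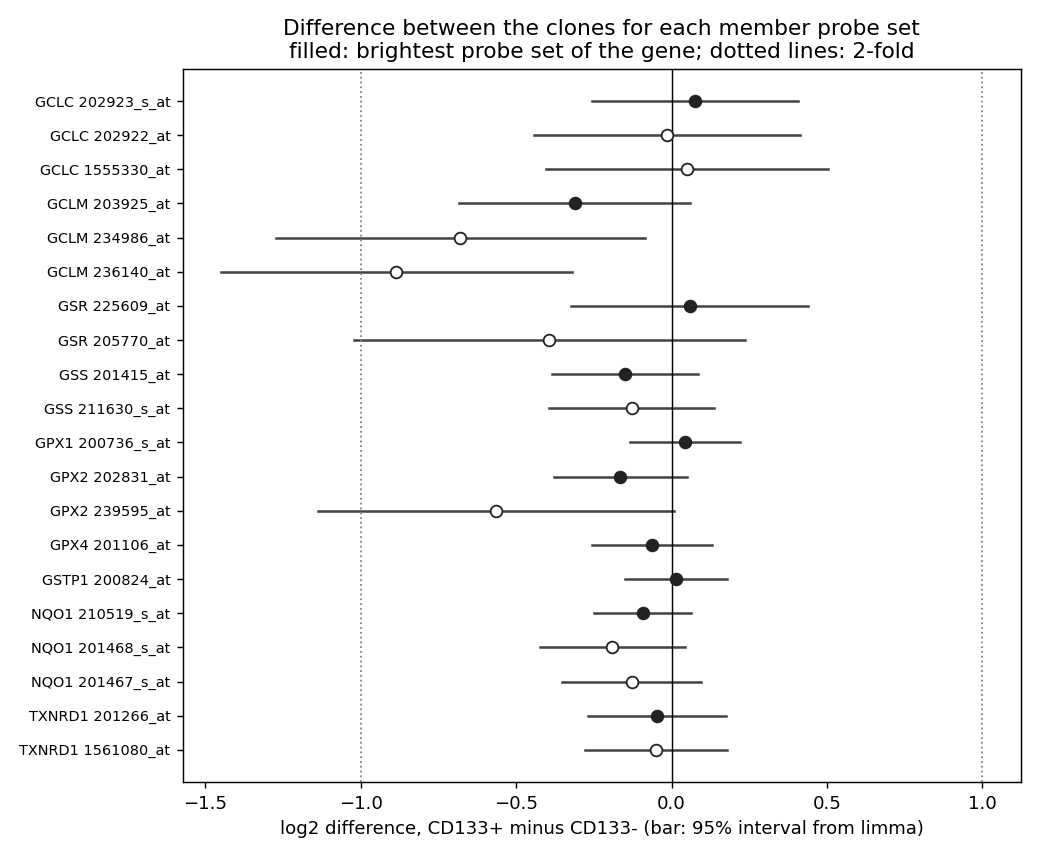
Log2 difference, CD133+ minus CD133- (horizontal axis), of each of the 20 probe sets with its 95% interval from limma, without adjustment for the number of tests. Filled points mark the brightest probe set of a gene, dotted lines a 2-fold change, and only the intervals of 234986_at and 236140_at of GCLM lie wholly on one side of 0.

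The arrays of a clone differed from each other about as much as from those of the other clone in these genes. The median size of the log2 difference over the 20 probe sets was 0.170 between the CD133+ arrays and 0.163 between the CD133- arrays. Between arrays of different clones with the same replicate number it was smaller, at 0.124 for replicate 1 and 0.115 for replicate 2. Between arrays of different clones and different replicate number it was 0.193 and 0.165. The labels do not say what the replicate numbers share. Over all probe sets the corresponding values were 0.172 and 0.176 within clones and 0.168 to 0.248 between them. The difference of the clone means exceeded the wider of the gaps within clones in 5 of the 20 probe sets, against 31.4% of all probe sets. The arrays of the clones did not overlap in 8 of the 20, all 8 with lower signals in CD133+ cells. These 8 came only from GCLM, GSS, GPX2 and NQO1, and probe sets of a gene share its RNA. Of all probe sets 43.9% did not overlap, with 20.4% of all probe sets lower and 23.5% higher. By brightest probe set, 3 of the 10 genes were lower without overlap and 0 higher, against 3910 lower and 5611 higher of all 19775 genes.

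Genes of the same pathways were read from 7 lists by name, 1 brightest probe set each, and 90 of the 97 listed genes had one. In the test over all probe sets none of the 90 passed, where 0.329% of all genes represented in this way did. At an unadjusted p under 0.05 there were 27 of the 90, against 15.9% of all genes. In the test with 1 probe set per gene, 2 of the 86 that passed the level filter were higher and 6 lower in CD133+ cells, against 1.36% and 2.38% of all genes tested. With probe sets averaged per gene, GPX8 was the only 1 of these 8 to pass, beside HMOX1. The medians of the lists lay between -0.13 and 0.032 on the log2 scale. A positive difference was found in 42 of the 90 genes, against 11404 of all 19775 genes, whose median was 0.047.

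The NRF2 regulators held 3 of the 6 lower genes. NFE2L2, the gene of NRF2 itself, read 9.93 and 9.94 in CD133+ and 10.62 and 10.57 in CD133- cells on its brightest probe set, 201146_at. CUL3, the scaffold of the ligase that marks NRF2, read 8.95 and 8.89 against 9.48 and 9.48 on 201371_s_at. KEAP1, the NRF2 inhibitor that serves as the adaptor of that ligase, read 9.18 and 9.27 against 9.68 and 9.84 on 202417_at. The CD133+ arrays lay below the CD133- arrays in all 3, an order in this direction that 20.4% of all probe sets showed. The 3 were shown for their small p or their call, so the order adds little to the calls. Of the 10 measured regulators 4 had a positive difference, SQSTM1 (0.29), NFE2L1 (0.24), MAFG (0.45) and BACH2 (0.075). None of the 4 passed, with limma adjusted p from 0.212 to 0.916. Both CD133+ arrays lay above both CD133- arrays in the first 3, an order that 23.5% of all probe sets showed, and the groups overlapped in BACH2. Of the 5 probe sets of SQSTM1, 3 were positive.

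The log2 difference of NFE2L2 was -0.66 (SE 0.094, 1.58-fold), with a limma adjusted p of 0.0558 in the test over all probe sets and 0.0108 with 1 probe set per gene. Its adjusted p over all the alternatives ran from 0.0101 to 0.488. CUL3 was at -0.56 (adjusted p = 0.117, and 0.0264 with 1 probe set per gene) and KEAP1 at -0.54 (0.132 and 0.0342). KEAP1 falls outside the naming rule and was chosen after its value was known. Further probe sets of NFE2L2, 1567013_at and 1567015_at, were dim and gave -0.19 and 0.16 with overlapping arrays, while their mean with 201146_at was -0.23 and did not pass. Of the 3 probe sets of CUL3, 2 were lower. Of the 10 measured NRF2 regulators, 0 passed in the limma test over all probe sets, with 4 positive and 6 negative differences. In that test 6 of the 10 had an unadjusted p under 0.05, against 15.9% of all genes.

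The list of further NRF2 targets had no call in the limma test over all probe sets or in that with 1 probe set per gene. Genes placed in the other lists, such as SRXN1, were not counted here. In the test over all probe sets 4 genes of the list had an unadjusted p under 0.05, against 15.9% of all genes. The list had 17 measured genes, of which 4 had a positive difference, and a median of -0.043. HMOX1, heme oxygenase, read 4.95 and 5.03 against 5.96 and 5.73, a log2 difference of -0.85 (SE 0.21, limma adjusted p = 0.163). ME1, the cytosolic malic enzyme that supplies NADPH, was at -0.41 (SE 0.12, adjusted p = 0.240). Its other probe sets gave -0.99 (adjusted p = 0.0853) and 0.067.

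Of the glutathione supply and turnover genes, GLRX, a glutaredoxin that removes glutathione from proteins, read 9.90 and 9.91 in CD133+ and 9.24 and 9.32 in CD133- cells. Its log2 difference was 0.62 (SE 0.11, limma adjusted p = 0.0825, and 0.0172 with 1 probe set per gene), and its second probe set gave 0.32. CHAC1, which degrades glutathione and is a stress-response gene, was at 0.70 (SE 0.19, adjusted p = 0.196). Of these 17 genes, 9 had a positive difference, with a median of 0.015. SLC7A11, the cystine carrier that feeds glutathione synthesis, was at -0.0089 (SE 0.12, adjusted p = 0.984), and was named for its role.

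Among other peroxidases and transferases, GPX8, a peroxidase of the endoplasmic reticulum, read 8.15 and 8.38 against 9.07 on both CD133- arrays, a tie left by the quantile normalization. Its log2 difference was -0.80 (SE 0.14, limma adjusted p = 0.0825, and 0.0173 with 1 probe set per gene), and its second probe set gave -1.18. MGST1, a microsomal transferase, was at -0.31 (SE 0.079, adjusted p = 0.182), with all 5 of its probe sets negative. The list of 21 measured genes had a median of 0.020, with 12 positive.

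In the thioredoxin list, TXNIP, the inhibitor of thioredoxin, read 8.95 and 8.85 against 8.16 and 8.23, a log2 difference of 0.71 (SE 0.13, limma adjusted p = 0.0921, and 0.0209 with 1 probe set per gene). Its other probe sets gave 0.46 and 0.14, and averaged over all of them TXNIP was at 0.44 (adjusted p = 0.186). SRXN1, the sulfiredoxin that repairs oxidised peroxiredoxins, was at -0.52 (SE 0.11, adjusted p = 0.126, and 0.0329). The 13 measured genes had a median of 0.032. Among superoxide dismutases and catalase, CAT, which breaks down hydrogen peroxide, was at -0.54 (SE 0.13, adjusted p = 0.173, and 0.04997 with 1 probe set per gene, just under the threshold), with all 3 probe sets negative. SOD1 was at -0.15 (SE 0.071, adjusted p = 0.444). The median over these 5 genes was -0.059.

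A list of 7 genes was read for the machinery that makes and inserts selenocysteine, on which GPX1, GPX2, GPX4 and TXNRD1 depend. Of the 7, SELENBP1 (-0.24) encodes a selenium-binding protein outside that machinery. In the whole list 0 of 7 genes passed in either limma test and the median was -0.11. In the test over all probe sets 1 of 7 had an unadjusted p under 0.05, against 15.9% of all genes. EEFSEC, the selenocysteine elongation factor, was at 0.72 (SE 0.23, limma adjusted p = 0.267), and at 0.39 without CD133- replicate 1, 1.04 without CD133- replicate 2 and 0.47 with centred arrays. SECISBP2, which binds the selenocysteine insertion element, was at 0.29 (SE 0.16, adjusted p = 0.504), and at 0.11 as deposited and 0.033 with centred arrays. These were the 2 genes of the 7 with a positive difference.

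**Figure D4:**
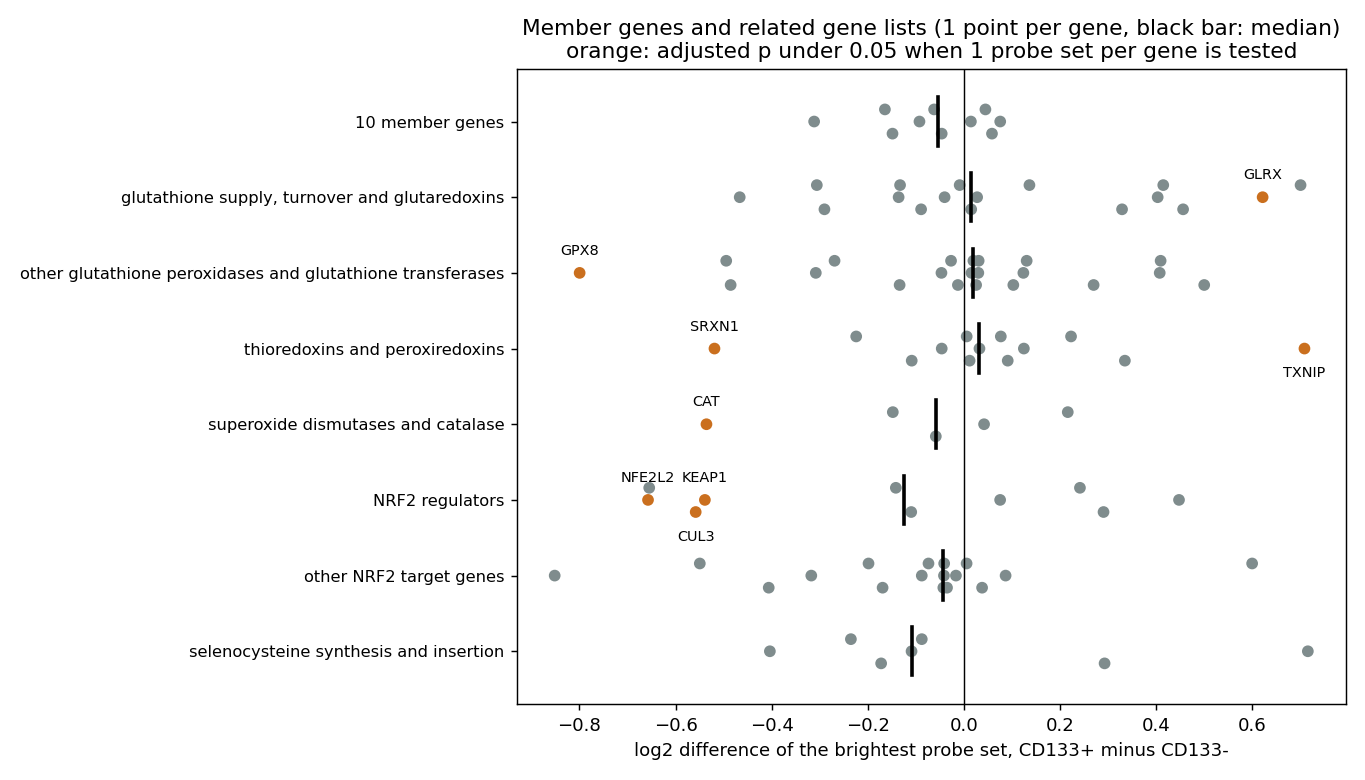
Log2 difference, CD133+ minus CD133- (horizontal axis), of the brightest probe set of the 10 enzymes and of the 90 measured genes of the 7 related lists, with 1 point per gene and a black bar at each median. Orange points, named, are the 2 higher and 6 lower genes with a limma adjusted p under 0.05 with 1 probe set per gene, and none of them belongs to the 10 enzymes.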

How the data were processed

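RNA of 2 CD133+ and 2 CD133- arrays was measured on an Affymetrix platform. The authors deposited 1 log2 signal per probe set and array, a scale read from the range of the values. Per the submitters' processing notes Affymetrix Expression Console was used. Its version, the background correction, the normalization and the summarisation are not given in the sources used here. Of 54675 probe sets, 62 controls were left out of the tests. Of the rest, 41091 named 1 gene in the platform annotation, 1801 several and 11721 none there. The deposited medians differed by more than 0.1, so the values were quantile normalized, which removes any overall shift between clones. Clone differences came from limma 3.58.1, run in R 4.3.3 (lmFit, eBayes with a trend on level, prior degrees of freedom 5.66), with adjustment over 54613 probe sets. The median SE was 0.177, a precision limited by the number of arrays. The test was checked on simulated data. All 20 probe sets of the 10 genes were named, and of each related list the 2 genes with the smallest p. List genes named outside that rule were KEAP1, SQSTM1, NFE2L1, MAFG, BACH2, SLC7A11 and SELENBP1. The genes, lists and tests were chosen with earlier results of these data known. Alternatives covered scaling, variance model, level filter, probe sets per gene, replicate block, threshold and leaving out each array. A probe set annotated to several genes was not used for any gene.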

Additional observations from a re-analysis of the deposited data

How the results depend on the processing

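No setting called a probe set of the 10 genes except the replicate block, described last. Over all probe sets the calls, higher and lower in CD133+, were 3 and 3 before quantile normalization, 7 and 25 with centred arrays, 1 and 1 without the trend, 109 and 227 without probe sets below the median level, 215 and 377 with 1 probe set per gene, 75 and 175 with probe sets averaged per gene, and 3 and 3 at an adjusted p under 0.01. The filters on level left out TXNRD1 1561080_at, and the stricter one GCLC 1555330_at too. Leaving out 1 array gave 4 to 106 higher and 5 to 414 lower. With 1 array left in a clone, that array is assumed to vary like the other clone. Of the related genes, 0 were called higher and 1 lower with robust settings and without the dimmest 20%, 1 and 2 without those below the median level, 2 and 6 with 1 probe set per gene, 0 and 2 with probe-set means, and 0 and 0 to 2 without 1 array.

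The signs that turned belonged to small differences. With centred arrays GCLC 202923_s_at was at -0.047, GPX1 at -0.052, GSTP1 at -0.077 and GSR 225609_at at -0.17. GSR 225609_at was also at -0.093 as deposited and -0.17 as a mean of probe sets. Leaving out 1 array turned the sign of GCLC 202923_s_at (-0.10 to 0.25), GCLC 202922_at (-0.20 to 0.18), GCLC 1555330_at (-0.12 to 0.22), GSR 225609_at (-0.063 to 0.18), GPX1 (-0.0019 to 0.091), GPX4 (-0.15 to 0.029), GSTP1 (-0.026 to 0.055), TXNRD1 201266_at (-0.12 to 0.024) and TXNRD1 1561080_at (-0.13 to 0.029). The cause was not tested.

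The arrays carry replicate numbers 1 and 2 in both clones. The deviations of same-numbered arrays from their clone means correlated with r = 0.40 across probe sets, a hint from the data, since the labels give the numbers no further meaning. With the replicate number as a block, 900 probe sets were higher and 1509 lower, GCLM 236140_at passed (-0.88, limma adjusted p = 0.0415) as the only 1 of the 20 probe sets, and 4 related genes were higher and 8 lower, with NFE2L2 at an adjusted p of 0.0101.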
